A study of Mus musculus with 12 samples.

Results

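Tmem135, Camta1 and Clptm1 are 3 of the 13906 genes tested in RAW 264.7 macrophages given miRNA-loaded endothelial vesicles, and their 31 annotated transcripts, of 116622 listed transcripts matched to the annotation, are described here library by library. The 3 genes were selected on these data. In an earlier gene-level comparison with the replicate number as a block, Tmem135 was higher with all 3 kinds of miRNA-loaded vesicles than with control vesicles, Camta1 and Clptm1 were lower with miR-183-5p-loaded vesicles, and all 3 differences changed in size with a correction for transcript length. Their values in the comparisons with control vesicles are therefore given as a description, with no test. The question was which transcripts of the 3 genes carried the part of each difference that came from the length correction.

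RAW 264.7 is a mouse macrophage-like cell line. Extracellular vesicles (EVs) came from cultures of MS-1, a mouse endothelial cell line, and were loaded by electroporation with a pre-miRNA mimic, either a premiR control (ctrl-EVs; cel-miR-67 in the study's methods) or 1 of 3 mouse miRNAs, miR-183-5p, miR-222-3p or else miR-142-5p. The EVs are called by the miRNA they carry, as in miR-183-5p-EVs, and together miR-EVs. RAW 264.7 cells received each kind of EV at 3 µg protein/ml for 48 h, and polyadenylated RNA was sequenced from 3 libraries per group, numbered 1 to 3. Every group received EVs and a mimic, so no group was untreated, all cells were of 1 line, and nothing in the labels ties the numbers to separate cultures, so that p-values measure the spread between these libraries.

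Tmem135 is a membrane protein with several membrane-spanning segments that is found on mitochondria and peroxisomes, and it is known for its part in mitochondrial division and in peroxisomal lipid metabolism. Camta1 is a calmodulin-binding transcription activator, a DNA-binding protein best known from neurons. Clptm1 is a protein of the endoplasmic reticulum membrane that holds back receptor subunits on their way to the cell surface. Many genes give rise to short transcripts besides the full-length mRNA, such as transcripts that keep part of an intron (retained intron), transcripts with no reading frame (processed transcript) and transcripts marked for nonsense-mediated decay.

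A long transcript yields more fragments per molecule than a short one. The number of reads of a gene therefore depends on the mean length of the transcripts that the quantification assigned to it, and a length offset divides each gene's count by that mean length before libraries are compared. The mean length used here is the mean of the effective lengths of a gene's transcripts weighted by their TPM (a level per length, scaled to the same total in every library). The effective length is the annotated length less the part in which no fragment can start. Where the mean length differs between groups, the offset moves the fold change, and the size of that move depends on how reads were shared among overlapping transcripts.

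The 12 libraries held 16294611 to 22974853 estimated counts each. Of 9 macrophage markers 8 passed the count filter, and their summed level was 1141 to 1558 CPM (counts scaled to the same library total) over the 12 libraries. Mertk, the macrophage marker that did not pass, reached at most 0.465 CPM in a library. Of 9 endothelial markers 5 passed, with a summed level of 12.6 to 29.3 CPM. The highest were Vwf, Eng and Pecam1, which reached 15.5, 8.08 and 7.04 CPM in a library. Cldn5 had no count in any library, and Emcn and Kdr reached 1 and 3 counts. None of these markers passed the DESeq2 test in a comparison with ctrl-EVs, 1 of them reaching an unadjusted p under 0.05. With DESeq2 and the length offset, 0.00719% of the 13906 genes differed between miR-142-5p-EVs and ctrl-EVs (1 gene, 0.0575% or 8 genes with the replicate block), 0% between miR-183-5p-EVs and ctrl-EVs (0.41% or 57 genes with the block), 0% between miR-222-3p-EVs and ctrl-EVs (0.0647% or 9 genes with the block) and 0% between all miR-EVs and ctrl-EVs (0.626% or 87 genes with the block). With the 9 miR-EV libraries coded as 1 group and the block, 1.6% (223 genes) differed. In bulk RNA, fewer cells of a type and less RNA per cell cannot be told apart.

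Of the 31 transcripts of the 3 genes 29 had a count in at least 1 library, and 16 passed the filter of 10 counts in 3 libraries. Tmem135 has 9 transcripts, Camta1 13 and Clptm1 9. Tmem135-206 and Camta1-205 had no count in any library. Short stretches of the transcripts that moved most are printed below, to show on how few bases, if any, reads could tell them from the longer transcripts of the same gene. All sequences run 5′ to 3′ on the minus strand of GRCm38 and were taken from the GENCODE vM21 transcripts. For Tmem135-208 (chr7:89154166-89154300, transcript positions 1 to 135) and Clptm1-209 (chr7:19637684-19637746, positions 1 to 63) the capitals mark the intron bases that no other transcript of the gene has. For Tmem135-203 (chr7:89404073-89404222, positions 1 to 150) the capitals are its own first exon, and for Camta1-213 (chr4:151792494-151861669, the whole transcript across its 4 exons) they mark the 9 bases of its last exon, which other Camta1 transcripts also hold.
Tmem135-208: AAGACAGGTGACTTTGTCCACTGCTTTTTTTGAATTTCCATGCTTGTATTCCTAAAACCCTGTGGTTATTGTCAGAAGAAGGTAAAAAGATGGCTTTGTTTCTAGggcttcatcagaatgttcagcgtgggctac
Tmem135-203: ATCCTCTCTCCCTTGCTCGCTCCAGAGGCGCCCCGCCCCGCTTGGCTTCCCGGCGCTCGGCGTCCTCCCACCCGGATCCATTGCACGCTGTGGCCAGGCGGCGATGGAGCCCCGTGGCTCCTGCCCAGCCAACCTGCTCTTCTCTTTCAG
Camta1-213: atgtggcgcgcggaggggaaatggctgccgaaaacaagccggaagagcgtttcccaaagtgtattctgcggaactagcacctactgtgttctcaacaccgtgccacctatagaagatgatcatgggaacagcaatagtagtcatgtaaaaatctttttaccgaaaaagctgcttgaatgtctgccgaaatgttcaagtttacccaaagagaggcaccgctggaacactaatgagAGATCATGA
Clptm1-209: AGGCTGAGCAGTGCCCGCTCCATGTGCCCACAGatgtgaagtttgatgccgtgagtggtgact

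A read can be placed on 1 transcript alone only where it covers bases or junctions that no other transcript holds, and the number of 31-base words found in no other listed transcript measures this. Tmem135-201, the full-length coding transcript, held 2169 such words among its 3670. Tmem135-208 held 105 of 666 and Tmem135-203 held 149 of 726. Camta1-213 held 0 of 213, because its whole sequence lies within Camta1-209 and Camta1-212, and Camta1-206 held 3 of 476. Clptm1-209 held 33 of 687, Clptm1-208 held 470 of 3077, and the full-length Clptm1-201 held 18 of 4113. Reads of Camta1-213, Camta1-206, Clptm1-209 and Clptm1-201 could thus be told from those of their neighbours in few places, and their estimated counts carry an error from this sharing that was not analysed here.

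Tmem135 lies on chromosome 7 from 89139714 to 89404222. Its full-length coding transcript Tmem135-201 (3700 nt) made up 79.0% of the gene's TPM as a mean over the 12 libraries. Its TPM was 26.3, 21.7 and 25.9 in ctrl-EV libraries 1, 2 and 3, 24.7, 20.4 and 27.9 in the miR-142-5p-EV libraries, 23.3, 25.2 and 27.4 in those of miR-183-5p-EVs, and 23.6, 24.1 and 26.2 in those of miR-222-3p-EVs. The level of Tmem135-201 overlapped between every miR-EV group and ctrl-EVs, and the mean difference over the 9 pairs of the same number was 0.153 TPM.

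Tmem135-208, a retained-intron transcript of 696 nt near the 3′ end of the gene, was the transcript that set the groups furthest apart. It shares 591 of its bases (84.9%) with Tmem135-201. Its TPM was 0.224, 0 and 0.157 in the ctrl-EV libraries, 5.48, 4.55 and 4.52 in the miR-142-5p-EV libraries, 4.54, 0 and 5.76 in those of miR-183-5p-EVs, and 2.06, 2.49 and 3.99 in those of miR-222-3p-EVs. All miR-EV libraries except number 2 of miR-183-5p-EVs were above every ctrl-EV library, and that library was listed at 0, as was ctrl-EV library 2. In estimated counts these levels were at most 1.62 in the ctrl-EV libraries and 16.5 to 45.0 in the 8 miR-EV libraries above 0, so the difference rested on few reads in a gene with 1006 to 1653.

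Tmem135-203, a processed transcript of 756 nt, is annotated to start 65.4 kb upstream of Tmem135-201 in an exon of its own. Its TPM was 2.19, 0 and 1.52 with ctrl-EVs, 2.51, 2.92 and 7.30 in the miR-142-5p-EV libraries, 3.49, 0.0282 and 6.37 in those of miR-183-5p-EVs, and 6.32, 0 and 5.05 in those of miR-222-3p-EVs. In 8 of 9 pairs the miR-EV library was above the ctrl-EV library of its number, and in the remaining pair both were at 0. The number 2 libraries were lowest in 3 of the 4 groups. Each of the other 6 Tmem135 transcripts held at most 1.55% of the gene's TPM on average. Tmem135-204, Tmem135-205 and Tmem135-207 had counts in 4, 1 and 3 of the 9 miR-EV libraries and in 0 of the 3 ctrl-EV libraries. They had at most 3.94 estimated counts in a library and did not pass the count filter. The share of all transcripts with so few counts that show this pattern was not determined, so no conclusion is drawn from it.

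As the short transcripts made up more of the gene, the mean transcript length of Tmem135 was 3237, 3430 and 3315 nt with ctrl-EVs, against 2755, 2553 and 2602 nt in the miR-142-5p-EV libraries, 2608, 3250 and 2566 nt in those of miR-183-5p-EVs, and 2722, 3125 and 2655 nt in those of miR-222-3p-EVs. It was lower than in the same-numbered ctrl-EV library in 9 of 9 pairs. The log2 ratio was −0.27, with an SD of 0.12 within groups. This change splits exactly over the transcripts: Tmem135-208 gave −0.12 of it (45.4% of the summed sizes of the parts), Tmem135-203 gave −0.07 (26.8%), and the lower share of Tmem135-201 gave −0.05 (17.2%).

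**Figure D1:**
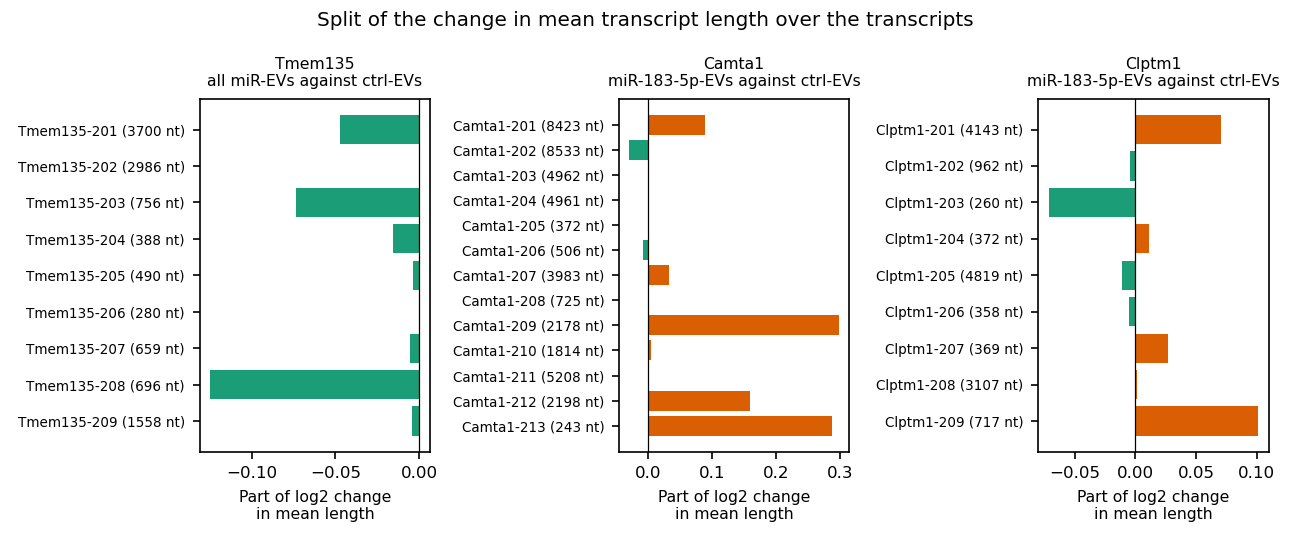
Bars show the part that each transcript contributed to the log2 change in mean transcript length, as a mean over pairs of the same replicate number, for Tmem135 in all miR-EVs and for Camta1 and Clptm1 in miR-183-5p-EVs against ctrl-EVs; the parts add up to the whole change. Tmem135-208 and Tmem135-203 had the largest parts of Tmem135, Camta1-209 and Camta1-213 those of Camta1, and Clptm1-209 that of Clptm1, where Clptm1-203 went the other way. A part follows the share of a transcript, so it can be large where the TPM of that transcript changed little, as for Camta1-209.

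Without the length offset the normalized counts of Tmem135 were 1344, 1244 and 1325 with ctrl-EVs and 1229 to 1615 in the 9 miR-EV libraries, so the groups overlapped. With the offset they were 1226, 1035 and 1202 with ctrl-EVs, 1371, 1429 and 1568 in the miR-142-5p-EV libraries, 1376, 1398 and 1532 in those of miR-183-5p-EVs, and 1369, 1371 and 1393 in those of miR-222-3p-EVs. All 9 miR-EV libraries were then above the 3 ctrl-EV libraries. The gene was selected on values with the offset, and the share of all genes separated in this way was not determined. The log2 fold change of all miR-EVs against ctrl-EVs was 0.30 (SE 0.09) with the offset and 0.05 (SE 0.11) without it. By group it was 0.33 (miR-142-5p), 0.31 (miR-183-5p) and 0.25 (miR-222-3p), each with an SE of 0.11, all against the same 3 ctrl-EV libraries. When Tmem135-208 was left out of the counts and of the mean length it was 0.14 (SE 0.10), without Tmem135-203 it was 0.20 (SE 0.10), and without both it was 0.02 (SE 0.13). With the replicate block these values were again 0.30, 0.05, 0.14, 0.20 and 0.02, and the SE of the value with the offset was 0.08.

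**Figure D2:**
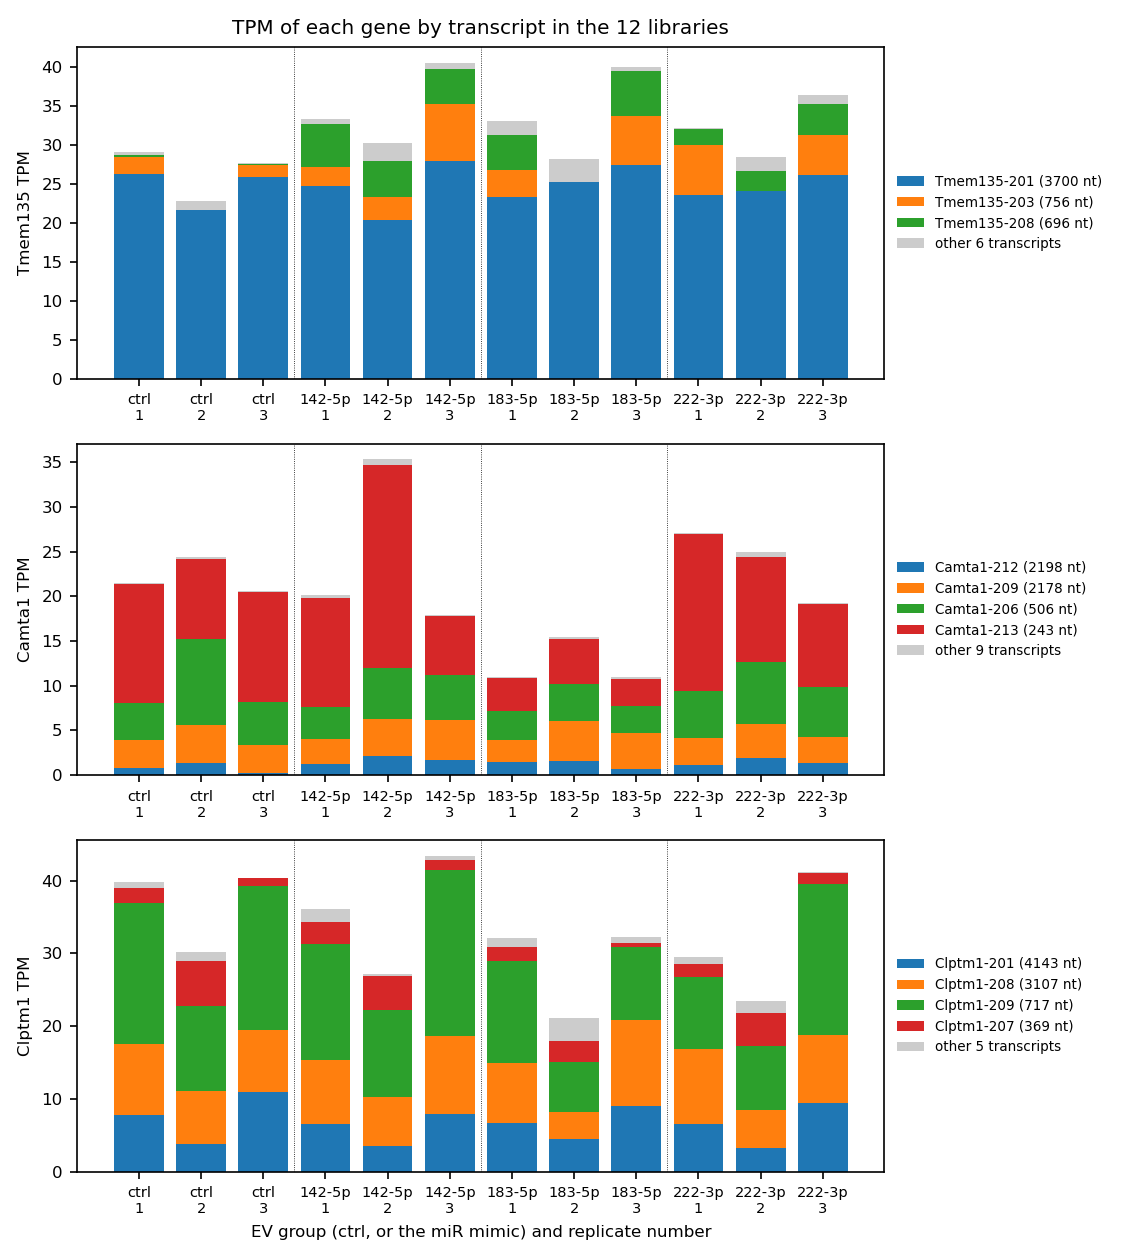
Stacked bars give the TPM of each gene in each of the 12 libraries, split by the transcripts that held at least 5% of the gene's TPM on average and the rest; the x axis names the EV group and the replicate number. In Tmem135 the blue bar of Tmem135-201 stayed between 20.4 and 27.9 TPM while the short transcripts above it were taller in most miR-EV libraries, and in Camta1 the red bar of Camta1-213 was shortest in the 3 miR-183-5p-EV libraries.

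Camta1 lies on chromosome 4 from 150917322 to 151861876. Its full-length coding transcripts were close to absent: Camta1-201 (8423 nt) and Camta1-202 (8533 nt) had at most 21.8 and 18.1 estimated counts in a library and 0.362% and 0.212% of the gene's TPM. The level of Camta1 came from 4 transcripts that start at the 5′ end of the gene and end within its first exons. These were Camta1-213 (243 nt, 47.8% of the TPM), Camta1-206 (a processed transcript of 506 nt, 25.4%), Camta1-209 (2178 nt, marked for nonsense-mediated decay, 18.9%) and Camta1-212 (a processed transcript of 2198 nt, 6.70%). Camta1 overlaps 3 other tested genes, Vamp3 and Per3 within it and Tnfrsf9 in part, all toward its 3′ end, and the 4 transcripts shared no 31-base word with any other gene.

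Camta1-213, annotated as coding over all 243 of its bases, had a TPM of 13.3, 8.96 and 12.3 with ctrl-EVs, 12.2, 22.6 and 6.55 in the miR-142-5p-EV libraries, 3.64, 5.00 and 3.07 in those of miR-183-5p-EVs, and 17.5, 11.8 and 9.20 in those of miR-222-3p-EVs. The 3 miR-183-5p-EV libraries were below the other 9, and the share of all transcripts separated in this way was not determined. The transcript held 47.8% of the gene's TPM from few reads, with 16.1, 9.91 and 16.1 estimated counts with ctrl-EVs and 4.77, 6.07 and 3.66 with miR-183-5p-EVs. Its effective length was 80.6 nt on average, so that 1 estimated count was worth 0.838 TPM, against 0.0343 TPM for Camta1-209. Of the gene's estimated counts Camta1-213 held 6.52% and Camta1-209 held 53.2%, the reverse of their order in TPM.

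Camta1-206 had a TPM of 4.11, 9.63 and 4.74 with ctrl-EVs and 3.27, 4.13 and 3.03 with miR-183-5p-EVs, lower in 3 of 3 pairs. Camta1-209, which had the most counts of the gene's transcripts, did not follow this pattern, with 3.22, 4.18 and 3.15 TPM with ctrl-EVs against 2.42, 4.55 and 3.95 TPM with miR-183-5p-EVs. Camta1-212 was higher than in the ctrl-EV library of its number in 9 of 9 pairs, with 0.761, 1.38 and 0.235 TPM with ctrl-EVs, 1.28, 2.12 and 1.67 TPM in the miR-142-5p-EV libraries, 1.49, 1.53 and 0.718 TPM in those of miR-183-5p-EVs, and 1.11, 1.87 and 1.31 TPM in those of miR-222-3p-EVs. Each miR-EV group overlapped ctrl-EVs, and the 9 pairs share the 3 ctrl-EV libraries. The gene's TPM was lower by 9.65 with miR-183-5p-EVs as a mean of the 3 pairs, a sum in which Camta1-213 changed by −7.62 and Camta1-206 by −2.68.

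The mean transcript length of Camta1 was 514, 675 and 485 nt with ctrl-EVs and 904, 975 and 1086 nt with miR-183-5p-EVs, which did not overlap. It was 445, 661 and 620 nt for miR-222-3p-EVs and 573, 514 and 847 nt for miR-142-5p-EVs, both overlapping ctrl-EVs. The log2 ratio for miR-183-5p-EVs was 0.84, with an SD of 0.20 within groups. Its largest parts were 0.30 from Camta1-209 (32.8%), 0.29 from Camta1-213 (31.6%) and 0.16 from Camta1-212 (17.6%). Camta1-209 itself changed by only 0.123 TPM as a mean of the pairs. Its part came from its mean share, which was 15.8% with ctrl-EVs and 29.1% with miR-183-5p-EVs, where the gene's TPM was lower. Among the coding transcripts alone the log2 ratio was 1.12.

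The counts of Camta1 as a gene did not set miR-183-5p-EVs apart from ctrl-EVs. Normalized without the offset they were 158, 263 and 143 with ctrl-EVs and 142.2, 266 and 157 with miR-183-5p-EVs, and the number 2 libraries were the highest of all 4 groups. With the offset they were 209, 255 and 205 with ctrl-EVs, 106, 177 and 97.3 in the libraries of miR-183-5p-EVs, 191, 383 and 159 in those of miR-142-5p-EVs, and 266, 276 and 169 in those of miR-222-3p-EVs. Only with the offset were the 3 miR-183-5p-EV libraries below the 3 ctrl-EV libraries. The log2 fold change for miR-183-5p-EVs was −0.82 (SE 0.38) with the offset and 0.0019 (SE 0.38) without it. It was −0.31 (SE 0.39) when Camta1-213 was left out and 0.19 (SE 0.37) when Camta1-206 was left out as well, so the direction turned with 2 transcripts that together held 3 words of their own. With the replicate block it was −0.86 (SE 0.21) with the offset. Camta1 had a log2 fold change of 0.09 in miR-222-3p-EVs and of 0.13 in miR-142-5p-EVs (SE 0.38 each), and neither kept its sign when 1 library was left out. It was −0.0062 without library 1 and −0.040 without library 2 of miR-222-3p-EVs in the former, and −0.35 without library 2 of miR-142-5p-EVs in the latter.

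**Figure D3:**
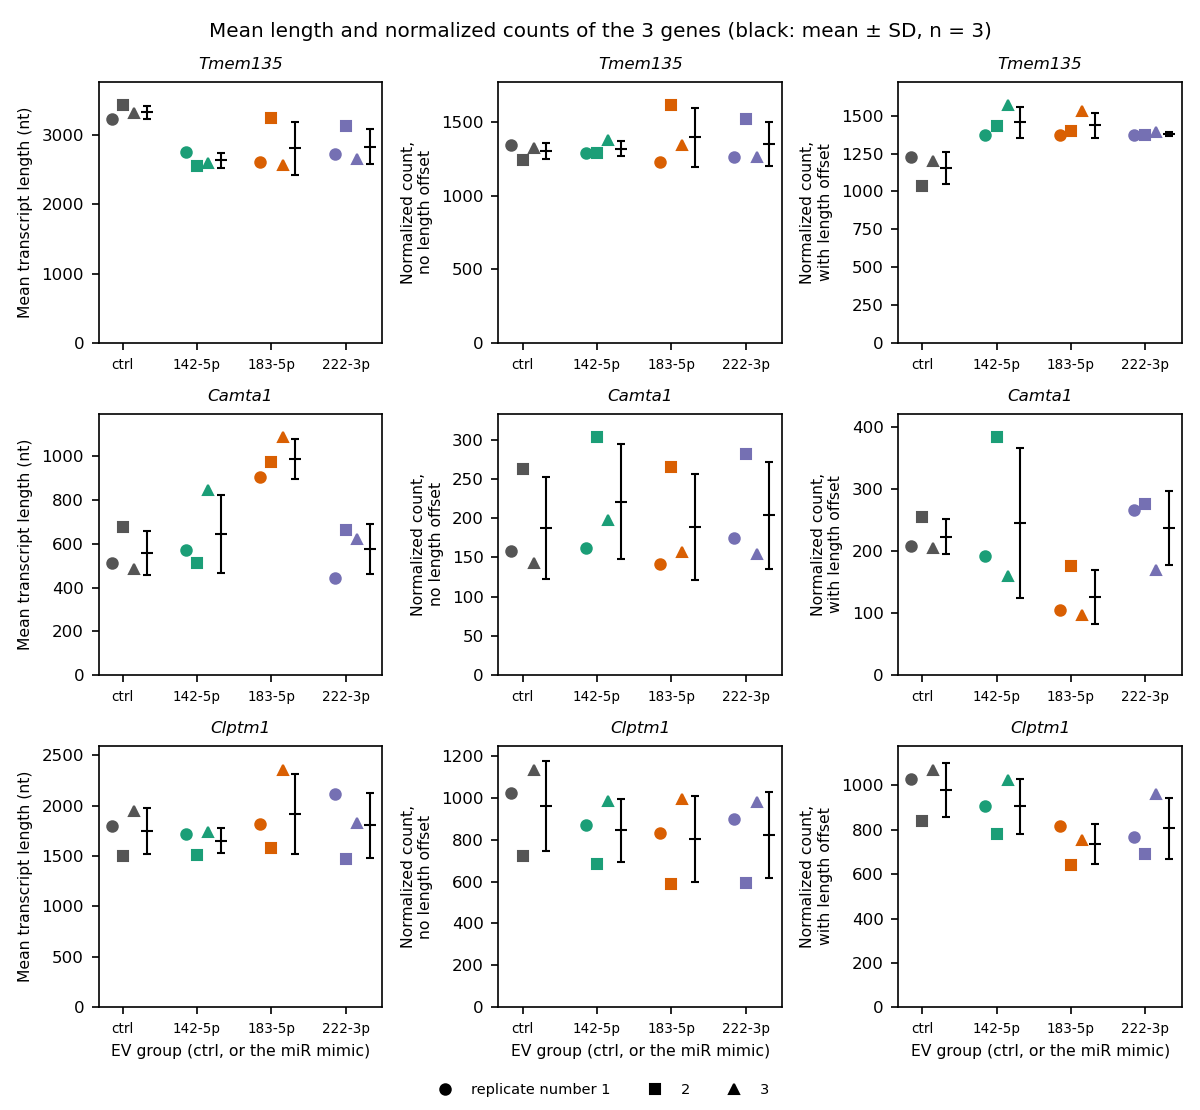
For each gene the left plot shows the TPM-weighted mean transcript length in nt, the middle plot the normalized count without and the right plot the normalized count with the length offset, by EV group; circles, squares and triangles are replicate numbers 1, 2 and 3, and black marks are the mean ± SD of 3 libraries. For Camta1 the middle plot shows ctrl-EVs at 143 to 263 and miR-183-5p-EVs at 142.2 to 266, while in the right plot miR-183-5p-EVs lie at 97.3 to 177, below ctrl-EVs.

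Clptm1 lies on chromosome 7 from 19631571 to 19665033 and has 1 coding transcript, Clptm1-201 (4143 nt), which held 19.8% of the gene's TPM. The retained-intron transcripts Clptm1-209 (717 nt) and Clptm1-208 (3107 nt) held 42.2% and 25.3%, and Clptm1-207, a processed transcript of 369 nt, held 8.94%. Clptm1-209 shares 684 of its bases (95.4%) with Clptm1-201 and differs from it by an intron stretch of 33 bases.

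The TPM of Clptm1-209 was 19.4, 11.6 and 19.9 with ctrl-EVs, 14.0, 6.86 and 9.97 in the libraries of miR-183-5p-EVs, 16.0, 12.0 and 22.7 in those of miR-142-5p-EVs, and 9.88, 8.81 and 20.8 in those of miR-222-3p-EVs. With miR-183-5p-EVs it was lower in 3 of 3 pairs, although library 1 of miR-183-5p-EVs was above library 2 of ctrl-EVs. Clptm1-201 had 7.86, 3.82 and 10.9 TPM with ctrl-EVs and 6.63, 4.47 and 8.96 TPM with miR-183-5p-EVs, and Clptm1-208 had 9.71, 7.31 and 8.53 TPM and 8.27, 3.74 and 12.0 TPM, so both overlapped. Of the mean loss of 8.31 TPM of the gene, Clptm1-209 accounted for −6.67, Clptm1-207 for −1.25 and the coding Clptm1-201 for −0.844.

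The mean transcript length of Clptm1 was 1799, 1500 and 1947 nt with ctrl-EVs and 1813, 1577 and 2357 nt with miR-183-5p-EVs. With miR-183-5p-EVs the mean length was above that of the same-numbered ctrl-EV library in 3 of 3 pairs. The log2 ratio of 0.12 was smaller than the SD of 0.25 within groups, which includes differences between replicate numbers. This ratio was −0.04 when library 3 of miR-183-5p-EVs was left out and library 3 of ctrl-EVs kept. Clptm1-209 gave 0.10 of the log2 ratio (33.3%) and Clptm1-201 gave 0.07 (23.3%), while Clptm1-203, a processed transcript of 260 nt, gave −0.07 (23.6%). The mean share of Clptm1-201 was 19.8% with ctrl-EVs and 23.2% with miR-183-5p-EVs, although its own TPM changed by −0.844. Clptm1-203 was listed at 0 in the 3 ctrl-EV libraries and its part came mainly from miR-183-5p-EV library 2, with 3.07 TPM from 4.28 estimated counts.

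For Clptm1 the offset moved the fold change less than for the other 2 genes. Normalized counts without the offset were 1024, 723 and 1135 with ctrl-EVs and 832, 587 and 995 with miR-183-5p-EVs, lower in 3 of 3 pairs but overlapping. With the offset they were 1028, 840 and 1072 against 819, 641 and 754, which did not overlap. The log2 fold change was −0.41 (SE 0.19) with the offset and −0.25 (SE 0.28) without it. It was −0.17 (SE 0.13) without Clptm1-209 and −0.49 (SE 0.21) without Clptm1-208. In the 2 other miR-EV groups the counts without the offset were also below the same-numbered ctrl-EV library in 3 of 3 pairs each. These comparisons share the ctrl-EV libraries.

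**Figure D4:**
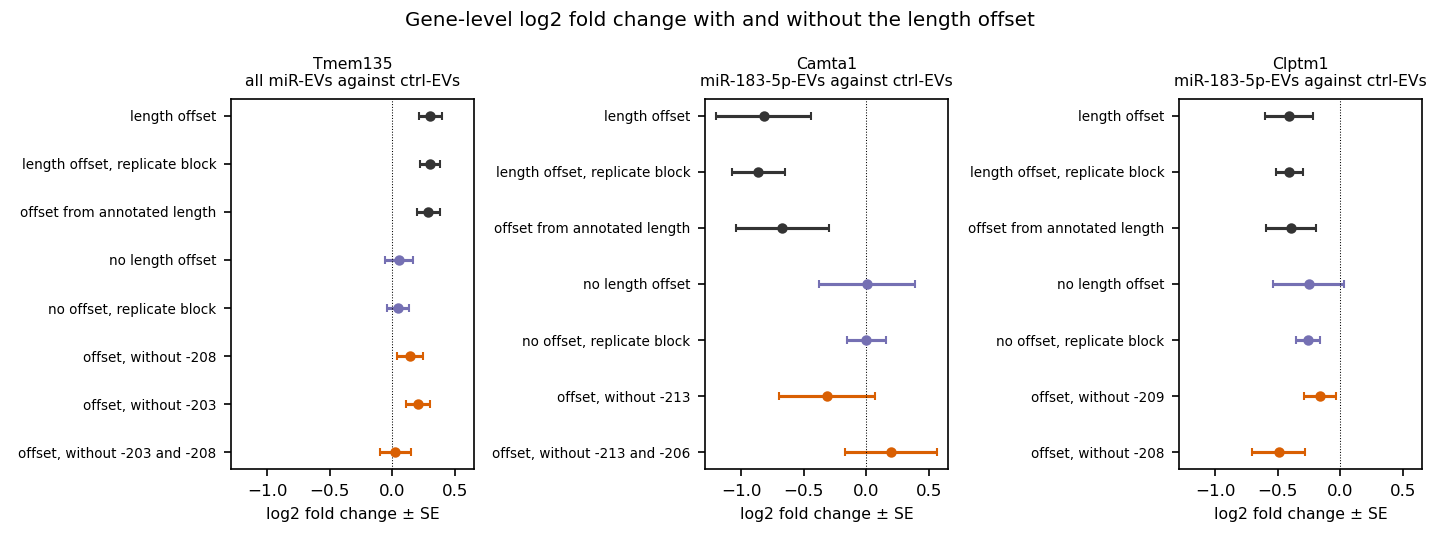
Points are the gene-level log2 fold changes from DESeq2 with bars of 1 SE, for the comparison each gene was selected on, with the length offset (black), without it (violet) and with the offset but without the named transcripts (orange). The Tmem135 value lay at 0.02 without Tmem135-203 and Tmem135-208, the Camta1 value at 0.19 without Camta1-213 and Camta1-206, and the Clptm1 value at −0.17 without Clptm1-209.

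Over all 13906 genes the offset moved the log2 fold change by a median size of 0.0257 (all miR-EVs) and 0.0308 (miR-183-5p-EVs). The move of Tmem135 in all miR-EVs, 0.25, was larger in size than that of 95.5% of genes. The move of Camta1 in miR-183-5p-EVs, −0.82, was larger than that of 99.4%, and the move of Clptm1, −0.15, larger than that of 88.5%. With miR-222-3p-EVs the move of Camta1 was −0.03, larger than that of 50.4%. Since the genes were selected for values with the offset, these ranks describe them and are no test. The same holds where groups did not overlap, and the share of all genes or transcripts without overlap was not determined.

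The comparison of miR-142-5p-EVs with miR-222-3p-EVs took no part in the selection and was tested per transcript. With DESeq2, 25 of 47135 transcripts differed (0.053%, or 55 and 0.117% with the replicate block), and none of the 16 transcripts of the 3 genes did in either fit. With edgeR 0 of 47135 differed, with 450 at an unadjusted p under 0.05. Of the 16, only Camta1-201 had an unadjusted p under 0.05 in DESeq2 (0.012), with an adjusted p of 1. It was listed at 0 in the 3 miR-142-5p-EV libraries and at 7.67, 13.0 and 0 estimated counts with miR-222-3p-EVs. The log2 difference was 0.77 (SE 1.09) for Tmem135-208, 0.12 (SE 1.75) for Tmem135-203, 0.06 (SE 0.64) for Camta1-213 and 0.36 (SE 0.43) for Clptm1-209, so a difference of 1 log2 unit lay within the 95% interval of each. That of Camta1-213 turned to −0.53 without library 2 of miR-142-5p-EVs and −0.16 without library 3 of miR-222-3p-EVs, and that of Tmem135-203 to −0.47 without the former group's library 3 and −0.46 without the latter's library 2. With the replicate block Tmem135-203 had a log2 difference of 2.59. Mean transcript length differed between these groups in 0% of 11576 genes by limma, with log2 differences of −0.10 (SE 0.08) for Tmem135, 0.15 (SE 0.21) for Camta1 and −0.11 (SE 0.10) for Clptm1.

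The replicate number was tested over the transcripts as well. It was the block of the fit on which the genes were selected, but the differences between numbers were not what they were selected on. Transcript levels differed between the 3 numbers for 20965 of 47135 transcripts (44.5%) by the DESeq2 likelihood ratio test, and for 7 of the 16 of the 3 genes, a share close to that of all transcripts. By edgeR 17559 (37.3%) and 5 of the 16 differed, with Clptm1-209 (adjusted p 0.0743) and Tmem135-203 (adjusted p 0.117) no longer called. Clptm1-201 and Clptm1-208 also passed the DESeq2 test when any 1 of the 4 groups was left out, and each of the other 5, Clptm1-207, Clptm1-209, Tmem135-202, Tmem135-203 and Tmem135-209, was lost in at least 1 of these fits. The coding transcript Clptm1-201 had the smallest adjusted p (4.57e-12), with 6.49 to 7.86 TPM in number 1, 3.25 to 4.47 TPM in number 2 and 7.94 to 10.9 TPM in number 3, which did not overlap. Clptm1-208 (adjusted p 0.00178) and Clptm1-209 (adjusted p 0.0269) were also lowest in number 2, with means of 9.27, 5.72 and 10.1 TPM and of 14.8, 9.83 and 18.3 TPM in numbers 1, 2 and 3. The short Clptm1-207 went the other way (adjusted p 0.0168), with means of 2.18, 4.54 and 1.16 TPM.

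In Tmem135 the number test was passed by 3 transcripts, and Tmem135-201 and Tmem135-208 were not among them. Tmem135-203 had means of 3.63, 0.738 and 5.06 TPM in numbers 1, 2 and 3 (adjusted p 0.0423 by the same DESeq2 test). Tmem135-209, a retained-intron transcript of 1558 nt, had 0.198, 0.886 and 0.314 TPM (adjusted p 0.00461), and the coding Tmem135-202 had 0.125, 0.505 and 0.123 TPM (adjusted p 0.0107). The adjusted p was 0.528 for Tmem135-201 and 0.577 for Tmem135-208. No Camta1 transcript passed, the lowest adjusted p being 0.0561 for Camta1-209.

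**Figure D5:**
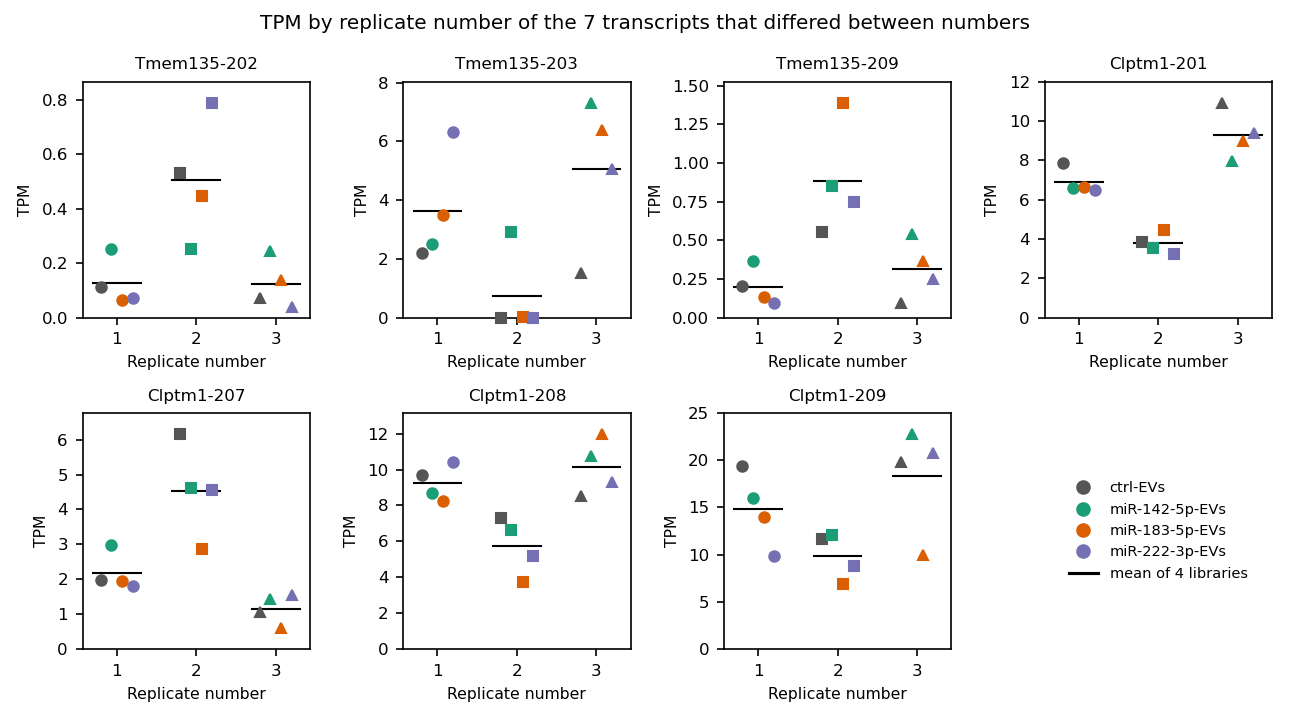
Each plot shows the TPM of 1 transcript in the 12 libraries by replicate number, coloured by EV group, with a line at the mean of the 4 libraries of a number. Clptm1-201, Clptm1-208 and Clptm1-209 had their lowest means in number 2 and Tmem135-202, Tmem135-209 and Clptm1-207 their highest.

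Mean transcript length differed between the numbers for 2511 of 11576 genes (21.7%, limma). Clptm1 was among them (adjusted p 0.0469), with a mean over the 4 groups of 1860, 1514 and 1967 nt in numbers 1, 2 and 3. Tmem135 had 2830, 3089 and 2784 nt (adjusted p 0.288) and Camta1 609, 706 and 759 nt (adjusted p 0.454). The call of Clptm1 was lost with annotated lengths (adjusted p 0.0511) and when any 1 group was left out (adjusted p 0.0900 to 0.181, limma).

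Genes that work beside the 3 were taken from fixed lists. Of 27 such genes, all of them tested, 0 differed from ctrl-EVs in any of the 4 comparisons by DESeq2 with the offset, and none had an unadjusted p under 0.05. With the replicate block 0 differed as well, with 1 to 3 genes per comparison at an unadjusted p under 0.05, and edgeR also gave 0. For all miR-EVs, 5 of 8 genes of mitochondrial fission and fusion had a value above 0, with a median log2 fold change of 0.08, and 8 of 14 genes of peroxisome biogenesis and beta-oxidation, with a median of 0.03, beside 0.01 over all genes. These values also depended on the offset. Without it 4 of the 8 were above 0, with a median of 0.02, and 5 of the 14, with a median of −0.05, again beside 0.01 over all genes. The 3 calmodulin genes, whose protein Camta1 binds, had a median of 0.05 with miR-183-5p-EVs with the offset and −0.0036 without it. Camta2, the paralogue of Camta1, had a log2 fold change of −0.16 (SE 0.26) with miR-183-5p-EVs, and Clptm1l, the paralogue of Clptm1, had 0.01 (SE 0.17).

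The genes whose normalized counts with the offset were most like each member over the 12 libraries, among 10856 others, are named as a description. For Tmem135 these were Zfp950 (Pearson's r 0.885), Zfp488 (0.827) and A630089N07Rik (0.824). For Camta1 they were Cenpx (0.884), Cox17 (0.883) and Dctpp1 (0.849), and for Clptm1 they were Ndufa12 (0.883), Gm20604 (0.879) and Afg1l (0.879). The libraries share replicate numbers and EV groups, so the points are not independent.

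The mature miRNAs are shown because each mimic brings its own seed (bases 2 to 8, in capitals), and they are credited to RefSeq with build GRCm38.p6. All 3 were found in that table, under the name miR-142a-5p for the mouse miR-142-5p.
mmu-miR-142a-5p: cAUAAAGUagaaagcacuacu
mmu-miR-183-5p: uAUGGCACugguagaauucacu
mmu-miR-222-3p: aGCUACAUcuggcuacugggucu
No 2 of the 3 share a seed. The 7-base DNA words that pair with the seeds on the transcript strand are ACTTTAT for miR-142-5p, GTGCCAT for miR-183-5p and ATGTAGC for miR-222-3p. GTGCCAT, the word for miR-183-5p, occurred once in the 3′ UTR of Clptm1-201 (2120 bases) and once in that of Tmem135-201 (2124 bases), and it was found in 13.6% and 13.7% of the 1563 and 1557 3′ UTRs of a length within 20% of these among tested genes. The 3′ UTR of Camta1-201 (3297 bases) held 0 copies of it, 2 of ACTTTAT and 1 of ATGTAGC, which were found in 20.2%, 27.6% and 21.4% of 1154 3′ UTRs of similar length. The short transcripts on which the fold changes turned, Tmem135-208, Tmem135-203, Camta1-213, Camta1-206 and Clptm1-209, held none of the 3 words. They have 243 to 756 bases, which leaves little room for a word. The share of transcripts of such a length that hold one was not determined, so no conclusion is drawn. Camta1-212 (2198 bases) held 1 copy each of ACTTTAT and GTGCCAT, and here too no such share was determined. Its TPM was above that of the same-numbered ctrl-EV library in 9 of 9 pairs, but the groups overlapped and the difference was not tested. A match is a word in the sequence and no evidence of a site.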

How the data were processed

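Polyadenylated RNA of RAW 264.7 cells was sequenced from 12 libraries, 3 for each of 4 EV groups. Per the study's methods, stranded mRNA libraries were read as pairs, and the authors quantified mouse Ensembl transcripts with Salmon without a genome alignment. For each transcript they deposited an estimated count, the TPM, the annotated length and the effective length. A read that fits several transcripts is split among them by the model, so counts of overlapping transcripts are estimates and no error of the split was used here.

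Of 118783 listed transcripts 116622 (98.2%) were matched by identifier to GENCODE vM21 (GRCm38), which gave 35865 genes. The rest held 0.605% to 0.707% of the counts and were left out. Expected counts were summed per gene and rounded. Genes and transcripts with at least 10 counts in 3 libraries entered 1 DESeq2 fit of all 4 groups (version 1.42.0, R 4.3.3), with the TPM-weighted mean effective length as offset for genes. Transcripts were tested with the Wald test (miR-142-5p-EVs against miR-222-3p-EVs) and the likelihood ratio test (replicate number), and log2 mean lengths of genes with at least 2 transcripts with limma 3.58.1. edgeR 4.0.16 was the alternative. A call is a Benjamini-Hochberg adjusted p below 0.05 over all features.

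The change in mean length was split over the transcripts by an exact identity on the log scale for each pair of the same number and averaged. Marker levels in CPM are gene counts scaled to the total of the gene counts. Named are the 3 genes, transcripts with at least 5% of a gene's TPM, with at least 10% of the parts of its length change or with a call, listed genes with a call and the 2 paralogues, and for each gene the 3 with the highest Pearson's r of log2(normalized count + 1) among those with a mean of at least 50. Other transcripts are named where they were at 0 or nearly so, and some markers for their high or low level. Both were chosen after their values were seen. The genes and lists were chosen with earlier results of these data known.

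The numbers in the titles were taken to pair the libraries, since the deviations from group means of libraries with the same number correlated in all 18 pairs (0.409 to 0.797 over 13906 genes). The main fit has no block. On simulated data the main gene, transcript and mean length fits recovered most of the features that were changed. Counts were changed only for features with more counts on average than Camta1-213, Tmem135-208 or Tmem135-203 had. The splitting of reads among transcripts was not simulated, so the simulation says nothing about transcripts with so few reads. Fits of the EV groups with the replicate block and edgeR were not simulated. At this depth 3 counts correspond to 0.131 to 0.185 CPM. Leaving out transcripts, and the block with other settings, were alternatives added after the data were seen.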

Additional observations from a re-analysis of the deposited data

How the results depend on the processing

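The replicate block changed no direction of the 3 fold changes with the length offset, nor did annotated lengths, edgeR, no count filter or, for Camta1 and Clptm1, the fit of the compared groups alone, and no listed companion gene was called under any alternative. Without the length offset the log2 fold change of Tmem135 in all miR-EVs was 0.053 (0.048 with the replicate block) and that of Camta1 in miR-183-5p-EVs was 0.0019 (−9.88e-05 with the block). Leaving out transcripts, an alternative chosen after the data were seen, gave 0.14 without Tmem135-208 (0.14 with the block), 0.20 without Tmem135-203 (0.20) and 0.025 without both (0.017), −0.31 without Camta1-213 (−0.29) and 0.19 without Camta1-206 as well (0.19), and −0.17 without Clptm1-209 (−0.17). Leaving out 1 library gave 0.23 to 0.35 for Tmem135, −1.13 to −0.66 for Camta1 and −0.51 to −0.32 for Clptm1.

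With coding transcripts only, the log2 ratio of mean length was −0.0069 for Tmem135 and 1.12 for Camta1, the latter from transcripts with few estimated counts. For Clptm1 it was −0.0029, but this gene has only 1 coding transcript. Its value could therefore show no shift between transcripts, and no conclusion is drawn from it. With all transcripts the ratio for Clptm1 was −0.040 to 0.25 when 1 library was left out and its same-numbered partner kept. It was negative without library 3 of miR-183-5p-EVs. In the comparison of miR-142-5p-EVs with miR-222-3p-EVs, 55 transcripts were called with the replicate block, 0 by edgeR and 30 to 57 without 1 library, with 45 and 46 without library 2 or 3 of miR-142-5p-EVs and 57 without library 2 of miR-222-3p-EVs; none of these were transcripts of the 3 genes. With 1 group left out, 1091 to 1718 genes were called for mean length by number, with 0 of the 3 genes (also 0 with annotated lengths), and 2 to 5 of the 16 transcripts for level by number, beside 14614 to 22469 of the 47132 to 47135 transcripts tested. In the fits that leave out a group or library fewer samples are used. The causes of the other changes were not tested. At this depth Camta1-213 and the short Tmem135 transcripts had few reads, which limits the precision of their levels.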

Other observations

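The full-length coding transcripts of Camta1, Camta1-201 and Camta1-202, were assigned reads in different libraries. Camta1-201 had more than 1 estimated count in 7 libraries and Camta1-202 in the other 5, with 0 libraries having more than 1 count of both. The transcript that was assigned reads had 7.67 to 21.8 estimated counts. In the 3 ctrl-EV libraries the counts were 11.3, 0 and 11.7 for Camta1-201, with 18.1 for Camta1-202 in library 2. With miR-142-5p-EVs only Camta1-202 was assigned reads, with 8.66, 18.0 and 9.82 estimated counts. With miR-183-5p-EVs this was so only for Camta1-201, with 7.73, 15.2 and 21.8. Camta1-201 held 0 words of 31 bases of its own and Camta1-202 held 131. Neither passed the DESeq2 test of miR-142-5p-EVs against miR-222-3p-EVs (adjusted p 1 each), and the differences from ctrl-EVs were not tested.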
